A study of Mus musculus with 12 samples.

Results

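The cytosolic ribosomal protein genes encode the proteins of the ribosome that translates nuclear messenger RNAs. They were chosen by gene symbol, as every row of the count table named Rpl or Rps followed by a number and up to a pair of letters, together with Rplp0, Rplp1, Rplp2 and Rpsa. This gave 81 of the 23420 genes in the table, with 47 genes of the large subunit, 31 of the small subunit and 3 of the ribosomal stalk. Of these, 78 passed the filter on low counts and stand among the 14898 tested genes, and the other 3 are Rpl10l, Rpl26 and Rpl30. RNA sequencing was performed on 12 libraries of mouse fat, 3 from each of 4 depots: the interscapular brown pad (iBAT), the supraclavicular brown pad (scBAT), the inguinal white pad (iWAT) and the epididymal white pad (eWAT). All 4 groups came from male C57BL/6 mice aged 8 weeks, without treatment, housed at ambient temperature, and no transgene or deletion is named. The labels do not say that the 3 libraries of a depot came from separate animals. The p-values measure the spread between these libraries, shared over the 4 depots, and this spread may be partly technical.

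A cytosolic ribosome joins a small subunit, which reads the messenger RNA, with a large subunit, which forms the peptide bond. Each protein of a subunit is needed in about equal amount, and in vertebrates nearly all of their messenger RNAs begin with a tract of pyrimidines that ties their translation to the mTOR kinase. A few members are paralogs that replace a standard protein in certain tissues, which in mice include Rpl3l in skeletal muscle and heart and Rpl39l in the testis. In brown fat the mitochondria make heat through Ucp1, and the proteins encoded in mitochondrial DNA are made by a separate, mitochondrial ribosome.

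The depots carried their defining markers: 8 brown adipocyte markers summed to 4122 to 5417 CPM in brown libraries and 94.0 to 402.8 CPM in white ones, where CPM is counts scaled to a common library size after TMM normalization. Libraries 1 and 3 of iWAT stood apart from the rest. Their 10 B cell markers summed to 1845 and 2525 CPM, against 108.2 CPM in iWAT 2 and at most 53.2 CPM in any other depot, and none of the 10 was at 0 in iWAT. The 11 T cell markers summed to 1223, 81.7 and 1897 CPM in iWAT 1 to 3 and to at most 25.7 CPM elsewhere. Summed levels of 12 proliferation markers were 382.0, 138.3 and 507.8 CPM in iWAT, while 8 adipocyte markers gave 8192, 13380 and 5230 CPM. All 12 macrophage markers were lower in brown than in white fat, with sums of 238.9 to 442.9 CPM against 1385 to 1666 CPM, and 5 of them were higher in scBAT than in iBAT. None was at 0 in any library, and their part in the comparisons was not tested. In bulk tissue, fewer cells of a type and less RNA per cell cannot be told apart. The main results that involve iWAT are therefore also given without iWAT 1 and 3, which leaves 1 iWAT library that is assumed to vary like the other depots. A further check replaced TMM factors, which were 0.872 to 0.922 in brown and 1.05 to 1.19 in white libraries, by plain library totals, and this moved the median gene by -0.29 (log2) between brown and white fat. Both checks were chosen after seeing the data.

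The start sites of the members on which the results turn are shown with their flanks, to let the paralogs be compared with standard members. Each run covers 60 bases before and 40 bases from the annotated start in RefSeq (GRCm38.p6), 5′ to 3′ on the strand of the gene. Capitals mark the longest run of C and T letters of at least 8 bases that reaches into the 25 bases on either side of the start, the first of equals, and the motif CCGGAAG on either strand, which is a core motif of ETS factors such as Gabpa. Rps27l and Rplp2 are the members at high counts with the largest excess in brown fat. Rpl39l and Rpl3l are tissue paralogs with the standard Rpl39 beside them. Rpl12 and Rps4x were called lower in brown than in white fat with all libraries, and Rps27 is the standard counterpart of Rps27l.
Rps27l, chr9:66946026-66946125, plus strand: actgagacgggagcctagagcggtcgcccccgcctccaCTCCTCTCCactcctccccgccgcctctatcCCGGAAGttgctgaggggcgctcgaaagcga
Rps27, chr3:90213609-90213708, minus strand: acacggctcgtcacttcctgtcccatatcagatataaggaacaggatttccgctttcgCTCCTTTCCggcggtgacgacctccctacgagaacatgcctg
Rplp2, chr7:141447591-141447690, plus strand: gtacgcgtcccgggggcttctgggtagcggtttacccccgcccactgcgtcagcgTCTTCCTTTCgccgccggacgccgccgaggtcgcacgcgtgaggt
Rpl39, chrX:37085183-37085282, minus strand: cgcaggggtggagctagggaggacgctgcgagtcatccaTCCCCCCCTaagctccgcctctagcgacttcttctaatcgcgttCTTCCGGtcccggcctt
Rpl39l, chr16:10170168-10170267, plus strand: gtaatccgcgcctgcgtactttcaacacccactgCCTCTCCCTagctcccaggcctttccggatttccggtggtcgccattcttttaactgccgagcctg
Rpl3l, chr17:24727766-24727865, plus strand: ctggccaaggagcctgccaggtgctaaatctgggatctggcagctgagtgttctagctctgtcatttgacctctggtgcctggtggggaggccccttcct
Rpl12, chr2:32961652-32961751, plus strand: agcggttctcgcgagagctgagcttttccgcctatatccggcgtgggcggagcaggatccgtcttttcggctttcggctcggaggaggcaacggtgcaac
Rps4x, chrX:102189352-102189451, minus strand: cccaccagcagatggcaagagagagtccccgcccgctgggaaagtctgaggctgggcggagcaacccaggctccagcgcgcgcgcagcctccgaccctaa

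The windows of Rps27l, Rps27, Rplp2, Rpl39 and Rpl39l hold a pyrimidine run of 9 or 10 letters near the start. The longest run there was 7 letters in Rpl12, 5 in Rpl3l and 4 in Rps4x. In Rps27 and Rplp2 the run began at -2 and -5 and crossed the start. In Rps27l, Rpl39 and Rpl39l it began at -22, -21 and -26 and ended before the start, outside the annotated transcript. Rps27l has another RefSeq start, where the longest run was 5 letters and CCGGAAG was absent. The counts that follow include runs that end before the start. Of 61 members with a RefSeq window of 300 bases (250 before and 50 after the start), 36 (59.0%) had a run of at least 8 letters near a start, against 26.9% of the other tested genes and 24.1% of all 32851 windows. CCGGAAG lay on either strand in 25 of 61 members (41.0%), against 17.8% of other tested genes and 8.9% of all windows. AAGATGG, the core motif of Yy1, was present in 14.8% of members, 7.8% of other tested genes and 6.3% of all windows. The E box CACGTG, which Myc can bind, was found in 9.8% of members, 11.4% of other tested genes and 7.2% of all windows. CCGGAAG and AAGATGG share the letters AAG and can overlap, as can a pyrimidine run and the complement of CCGGAAG. These searches describe letters in the windows and do not show binding.

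Members took a small and even share of the reads in 10 of the 12 libraries. The share of all counts lying in the 81 genes was 1.63%, 1.71% and 1.61% in iBAT 1 to 3. It was 1.65%, 1.67% and 1.59% in scBAT. In eWAT the share was 1.64%, 1.57% and 1.51%. The iWAT libraries had 2.83%, 1.72% and 3.46%, so that iWAT 2 lay close to the highest iBAT library and iWAT 1 and 3 lay far above the other 10. The brown depots had means of 1.65% ± 0.0532 (iBAT) and 1.64% ± 0.0412 (scBAT), eWAT had 1.57% ± 0.0688 and iWAT had 2.67% ± 0.881 (SD, n = 3). The libraries with the high share were those with the high B and T cell marker levels, and the part of those cells in the share was not tested.

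**Figure D1:**
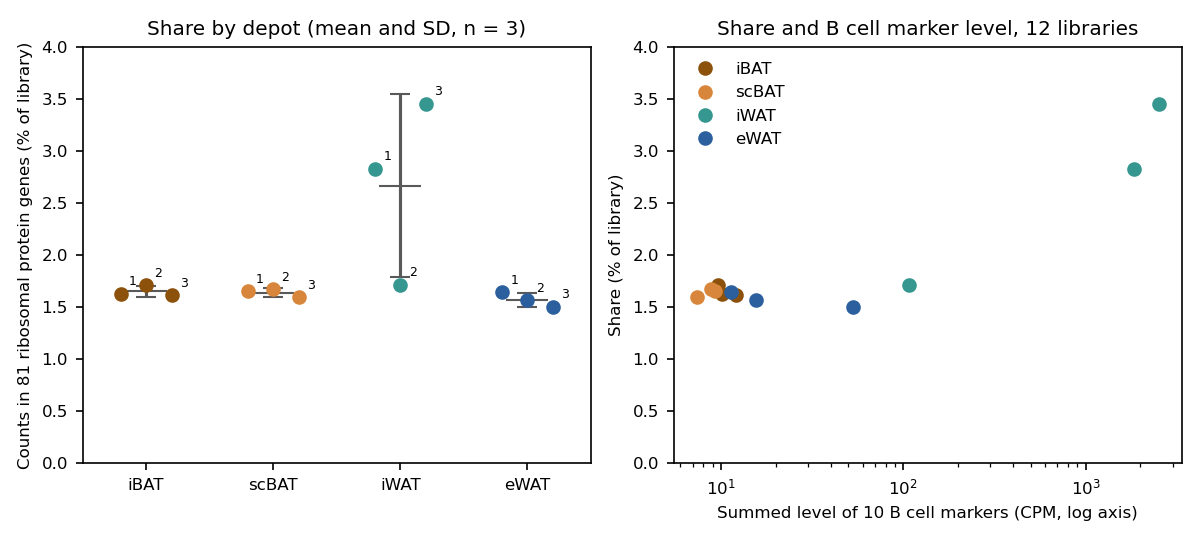
Left, the share of all counts that lay in the 81 genes, as a percentage of each library (points, numbered by library), with mean and SD of each depot (n = 3). Right, the same share against the summed level of 10 B cell markers in CPM on a log axis. The 2 iWAT libraries above 1000 CPM of B cell markers hold 2.83% and 3.46%, and the other 10 libraries lie between 1.51% and 1.72%.

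Within each depot other than iWAT, the members varied little. Over the 74 members with at least 500 counts, the median coefficient of variation between replicate libraries was 3.84% in iBAT, 3.04% in scBAT and 4.97% in eWAT, against 5.68%, 6.48% and 5.66% for the 5487 genes of all kinds at the same count minimum. In iWAT it was 26.8% for the members and 19.96% for all genes. The 5487 genes share the count minimum but were not matched to the members by level. Counting error may therefore differ between the sets, and its part in these values was not tested. The test shares the estimate of spread of each gene over all 4 depots. Its p-values therefore include the iWAT spread in comparisons without iWAT, and the smaller spread of other depots in comparisons with it. The order of the 3 iWAT libraries was the same, 3 above 1 above 2, in 74 of 78 members (94.9%), against 41.7% of all tested genes. The exceptions were Rpl39l, Rpl3l, Rps27 and Rps27l. Library iWAT 3 was the highest of all 12 libraries for 70 members (89.7%, against 32.0% of all tested genes), with Rpl24, Rpl36, Rpl39l, Rpl3l, Rpl41, Rplp2, Rps27 and Rps27l as the others. The size of the step differed between members: the ratio of iWAT 3 to iWAT 2 had a median of 1.73 and reached 2.62 for Rpl12, against 1.24 for Rplp2, 1.12 for Rpl41 and 0.713 for Rps27l. Library iWAT 2 lay within the range of the 9 libraries of other depots for 72 members (92.3%, against 80.0% of all tested genes). It lay above all eWAT libraries for 72 (92.3%, against 32.9%) and below all brown libraries for 51 (65.4%, against 36.9%).

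**Figure D2:**
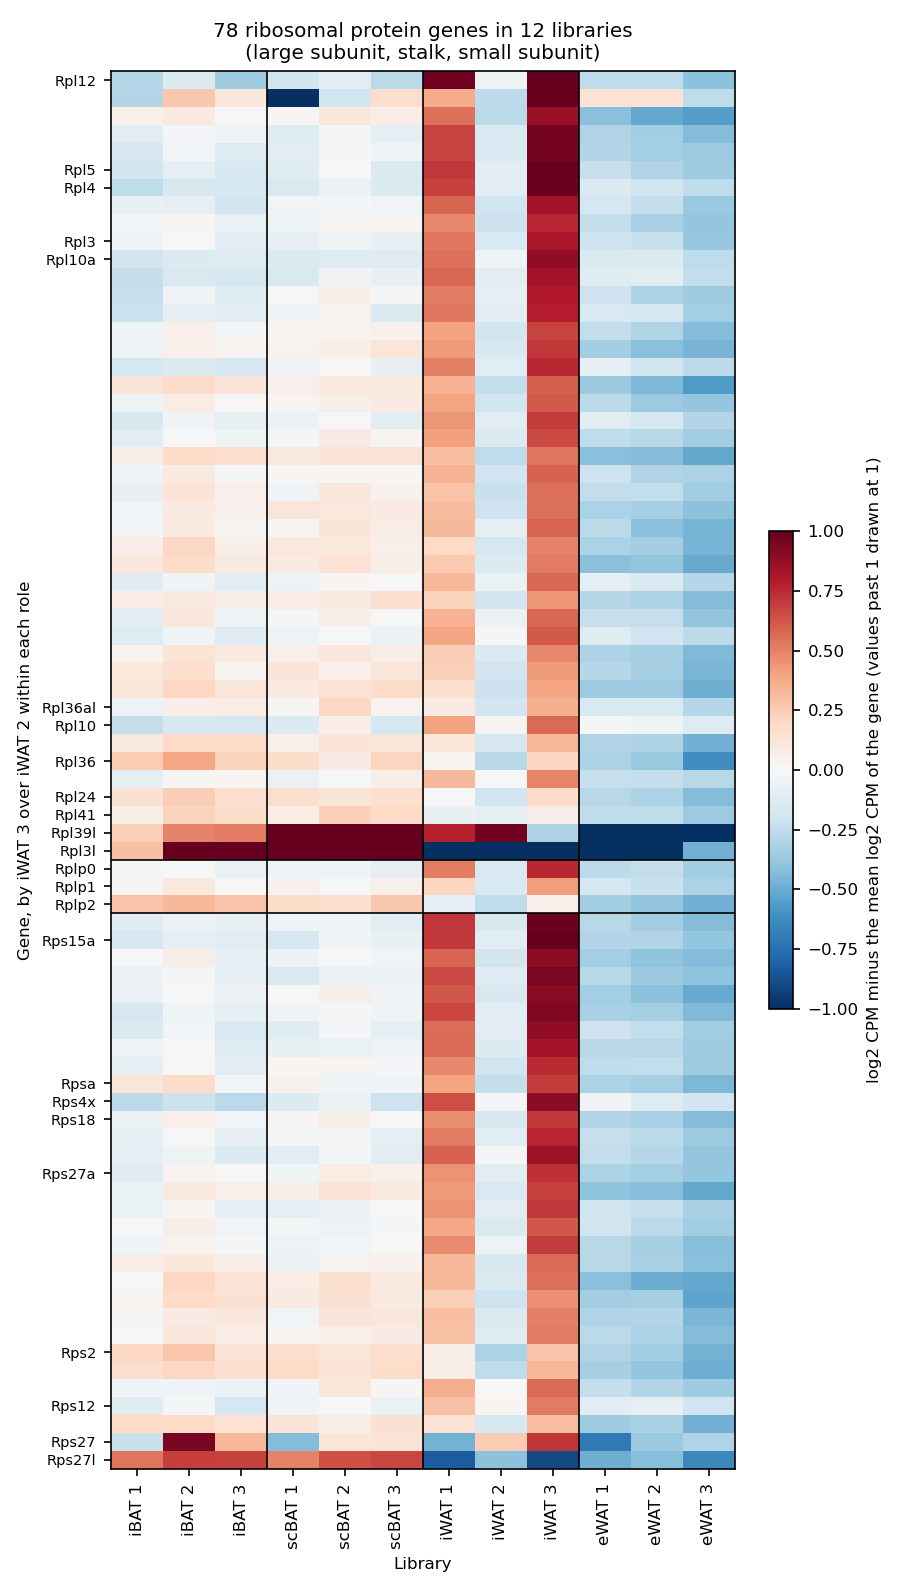
Level of the 78 tested members in each library, as log2 CPM minus the mean log2 CPM of the gene over 12 libraries, grouped into large subunit, stalk and small subunit and sorted within each by the step from iWAT 2 to iWAT 3, with 24 rows labelled. Columns iWAT 1 and iWAT 3 are high for most rows and eWAT columns are low, while Rpl39l, Rpl3l, Rplp2 and Rps27l leave this pattern.

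Between the white depots, 71 of 78 members (91.0%) were higher in iWAT than in eWAT and none was lower, while 17.7% of all tested genes were called higher and 11.0% lower (edgeR quasi-likelihood test, adjusted p under 0.05). The median log2 difference was 0.66 for the members and 0.00 for all genes. Large subunit genes were higher in 40 of 44 cases with a median log2 difference of 0.62, small subunit genes in 28 of 31 with a median of 0.70, and all 3 stalk genes with a median of 0.41. Members not passing the test were Rpl34, Rpl36al, Rpl3l, Rpl41, Rps2, Rps27 and Rps27l. When iWAT 1 and 3 were left out the median log2 difference was 0.20, and 1 member, Rpl39l, passed as higher and none as lower, with 3.12% of all genes called higher and 2.68% lower. The member count rested on single libraries, and the count of all genes called higher, 2631 of 14898 in the main fit, moved as well. The member count was 10 without iWAT 1 and 32 without iWAT 3, beside 852 and 1065 of all genes. It was 13, 19 and 6 without eWAT 1, 2 and 3 in turn, beside 641, 957 and 872 of all genes. With replicate number as a block it was 57, beside 1876 of all genes. The member median stayed between 0.46 and 0.84 over the 12 libraries left out.

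Rpl12, a protein at the base of the stalk, showed the largest difference between white depots among members at high counts. Its level was 423.8, 208.6 and 546.0 CPM in iWAT 1 to 3. It was 180.7, 181.0 and 162.1 CPM in eWAT, and 168.8 to 200.7 CPM over the 6 brown libraries. All 3 iWAT libraries lay above the 9 others, iWAT 2 by a small margin. The log2 difference from eWAT was 1.17 (SE 0.27, adjusted p = 0.0139), and 0.28 without iWAT 1 and 3 (adjusted p = 0.205). Rpl12 shares 49.4% of its 50-base windows with other genes, so its reads may be split among them.

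Other large subunit members had the same order of libraries in iWAT as Rpl12. Rpl5, which with Rpl11 can bind Mdm2 and thereby raise p53, stood at 408.0, 230.9 and 496.1 CPM in iWAT against 194.8 to 212.3 CPM in eWAT, without overlap, a log2 difference of 0.90 (adjusted p = 0.0174). Rpl4, which lines the exit tunnel of the large subunit, reached 968.1, 559.0 and 1189 CPM in iWAT and 506.0 to 543.9 CPM in eWAT (log2 difference 0.79, adjusted p = 0.0282). Rpl3, next to the peptide bond centre, differed by 0.72 (adjusted p = 0.0273). Rpl5, Rpl4 and Rpl3 did not pass without iWAT 1 and 3, with log2 differences of 0.21, 0.11 and 0.13.

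Among small subunit members Rps15a rose most in iWAT, with 288.0, 164.0 and 355.6 CPM there and 143.7, 142.6 and 134.9 CPM in eWAT (log2 difference 0.94, adjusted p = 0.0142). Rps27a, made as a fusion with ubiquitin, had 322.5, 218.0 and 391.0 CPM in iWAT against 180.6 to 189.3 CPM in eWAT, without overlap, and differed by 0.75 (adjusted p = 0.0151). Rpsa, known also as the laminin receptor, differed by 0.71 (adjusted p = 0.0290). Rps12 rose less, by 0.43 (adjusted p = 0.0316). Again none passed once iWAT 1 and 3 were left out, at 0.25, 0.26, 0.15 and 0.18.

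Between brown and white fat, the direction of most members depended on which iWAT libraries entered and on the scaling. In the mean of both brown minus the mean of both white depots, 12 of 78 members were higher and 4 lower, fewer than the 31.3% and 38.1% of all tested genes (69.4% called in all). The median log2 difference was -0.02 for the members and -0.11 for all genes. Leaving out iWAT 1 and 3, 59 members were higher and none lower, against 33.6% and 35.2% of all genes, and the median was 0.26. With library totals in place of TMM, 4 were higher and 35 lower, with 21.8% and 52.6% of all genes and a median of -0.32. With both changes the median was 0.02 for the members and -0.27 for all genes. Leaving out iWAT 2 gave 15 higher and 32 lower, beside 5291 and 6566 of 15366 tested genes. Leaving out iWAT 3 gave 22 higher and 2 lower, beside 4798 and 5742 of 15024. The lower member count was 1 without any of 8 other libraries: each iBAT library, scBAT 1 and 3, iWAT 1 and eWAT 1 and 2. Among all tested genes, 5294 to 5500 were lower in those fits. The count of lower members was 2 without scBAT 2 and 9 with upper quartile scaling, beside 5455 and 6196 of all genes.

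Against eWAT alone, iWAT levels do not enter, though the shared estimate of spread still includes the iWAT libraries. The median member was higher in brown fat with TMM scaling and close to even with library totals. In iBAT 26 of 78 were higher than in eWAT and none lower, beside 26.2% and 27.5% of all genes, with a median log2 difference of 0.31 for members and -0.05 for all genes. In scBAT 28 were higher and none lower, beside 26.0% and 25.8%, with medians of 0.32 and -0.04. Leaving out iWAT 1 and 3 raised these counts to 64 and 66, with none lower, at 33.6% and 33.3% of all genes called higher and 34.3% and 33.4% lower, and moved the medians only to 0.33 and 0.35. All 6 brown libraries lay above all 3 eWAT libraries for 62 of 78 members (79.5%), against 32.2% of all tested genes. With library totals the medians fell to 0.07 and 0.06, beside -0.29 and -0.31 for all genes, 5 and 4 members were higher and none lower (18.9% and 17.9% of all genes higher, 36.2% and 36.6% lower), and 28 members (35.9%) had all brown libraries above eWAT, against 22.2% of all genes. With both changes 31 were higher and 10 lower in iBAT (23.4% and 46.3% of all genes), and 28 were higher and 6 lower in scBAT (22.4% and 47.4%). Single libraries moved the higher counts of the main fit: 60 and 62 without iWAT 2, beside 4991 and 4854 of all genes. They were 16 and 14 without eWAT 3, beside 3318 and 3209, and for scBAT 17 without scBAT 3, beside 3326.

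**Figure D3:**
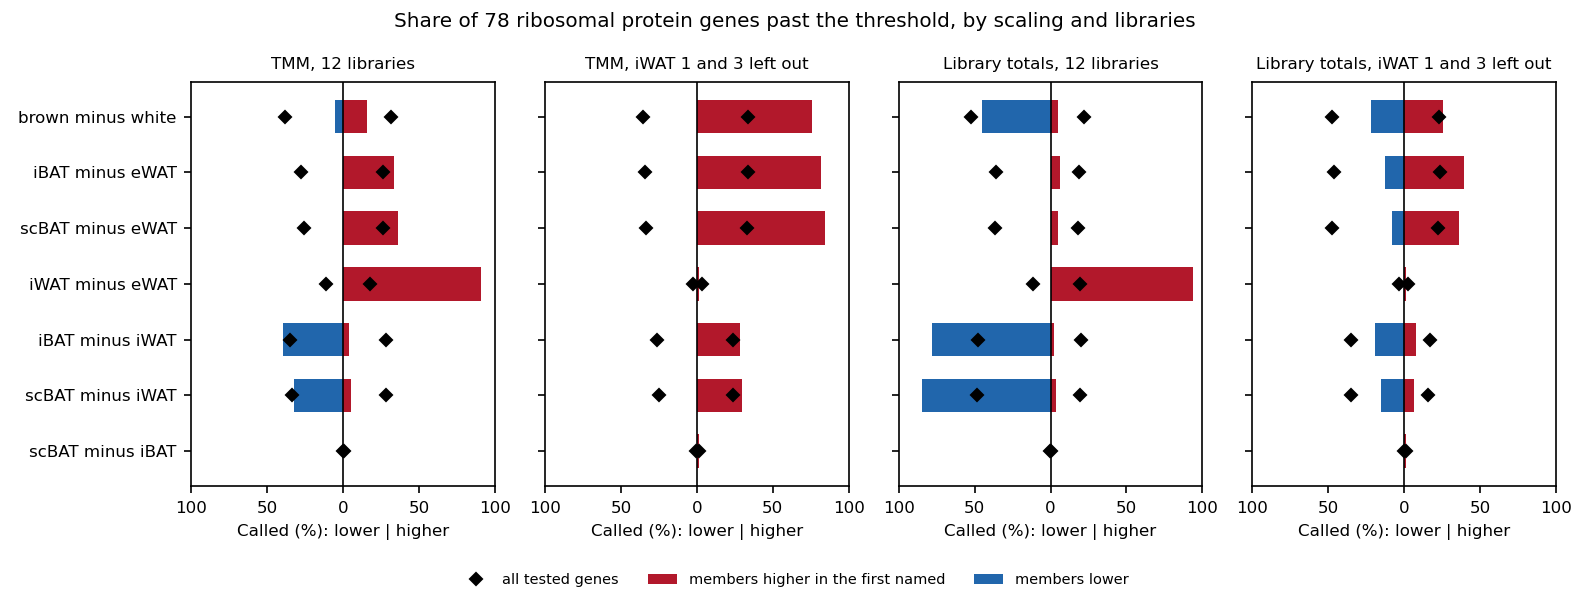
Percentage of the 78 tested members called higher (right, red) or lower (left, blue) in each comparison, with black diamonds for all tested genes, under TMM scaling or library totals and with or without iWAT 1 and 3. The iWAT minus eWAT bar falls from 91.0% to 1.3% when iWAT 1 and 3 are left out, and the brown minus white bars turn with the scaling.

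Against iWAT, 31 members were lower in iBAT and 3 higher, beside 35.2% and 27.9% of all genes, and 25 were lower in scBAT and 4 higher, beside 33.5% and 28.1%. The higher members were Rplp2, Rps27l and Rpl3l, joined in scBAT by Rpl39l. Rpl12 gave the largest decrease in both, -1.12 (adjusted p = 0.00401) in iBAT and -1.05 (adjusted p = 0.00601) in scBAT. Once iWAT 1 and 3 were left out no member was lower and 22 and 23 were higher, with 24.1% and 23.8% of all genes called higher and 26.5% and 25.0% lower. With library totals 61 and 66 were lower and 2 and 3 higher, with 48.1% and 48.4% of all genes lower and 19.8% and 19.2% higher. With both changes 15 and 12 were lower and 6 and 5 higher, with 34.9% and 35.1% of all genes lower and 17.1% and 16.0% higher. Single libraries moved the lower counts too. For iBAT they were 11, 17 and 12 without iBAT 1, 2 and 3 and 13, 62 and 11 without iWAT 1, 2 and 3. Of all genes, 4652, 4626, 4762, 4466, 6278 and 4890 were lower, in the same order. For scBAT the member counts were 4, 9 and 6 without scBAT 1, 2 and 3 and 5, 64 and 4 without iWAT 1, 2 and 3. Beside them, 4532, 4398, 4363, 4196, 6131 and 4659 of all genes were lower.

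The 4 members called lower in brown than in white fat were Rpl12, Rps4x, Rpl10a and Rpl10. Rps4x, an X-linked protein of the small subunit, had 342.0, 354.7 and 341.4 CPM in iBAT and 376.1, 393.8 and 357.0 CPM in scBAT. It had 644.5, 410.2 and 768.4 CPM in iWAT and 401.6, 378.2 and 360.5 CPM in eWAT. The iWAT libraries lay above all others, and scBAT and eWAT overlapped. The log2 difference was -0.41 (SE 0.14, adjusted p = 0.0180). Rpl12 differed by -0.50 (adjusted p = 0.0335) and Rpl10, which joins the large subunit last, by -0.28 (adjusted p = 0.0295). Rpl10a differed by -0.31 and passed the threshold only just. The 4 differences without iWAT 1 and 3 were -0.03 for Rpl12, -0.12 for Rps4x, -0.02 for Rpl10a and -0.10 for Rpl10, and none passed. With library totals all 4 passed as lower, at -0.81 for Rpl12, -0.72 for Rps4x, -0.61 for Rpl10a and -0.57 for Rpl10. They also passed with both changes, at -0.28, -0.37, -0.26 and -0.35 in the same order (adjusted p from 0.0002 to 0.0034). Each of the 4 shares between 49.4% and 88.1% of its windows with other genes.

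Relative to the median member of the same library, which cancels the scaling, several members held different places in brown and white libraries. These 5 were chosen after their values were seen and are described only. Rps4x lay 0.60 to 0.73 (log2) above the median member in the 6 brown libraries and 1.04 to 1.16 above it in the 6 white ones, without overlap, and iWAT 2 had the lowest white value. Rpl4 lay 1.20 to 1.27 above in brown and 1.49 to 1.71 above in white libraries, again without overlap. Rplp2 lay 0.44 to 0.70 above in brown libraries, 0.29 to 0.33 above in eWAT and iWAT 2, and at -0.18 and -0.28 in iWAT 1 and 3. Rpl10 was 0.82 to 0.86 above in eWAT and 0.75 above in iWAT 2, against 0.33 to 0.53 in brown fat and 0.49 and 0.43 in iWAT 1 and 3. Rps18, a protein of the head of the small subunit, kept the steadiest place of all 78, at 0.12 to 0.18 above the median member in every library (SD 0.014). Rpl27 and Rps27a came next, with SDs of 0.039 and 0.043.

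**Figure D4:**
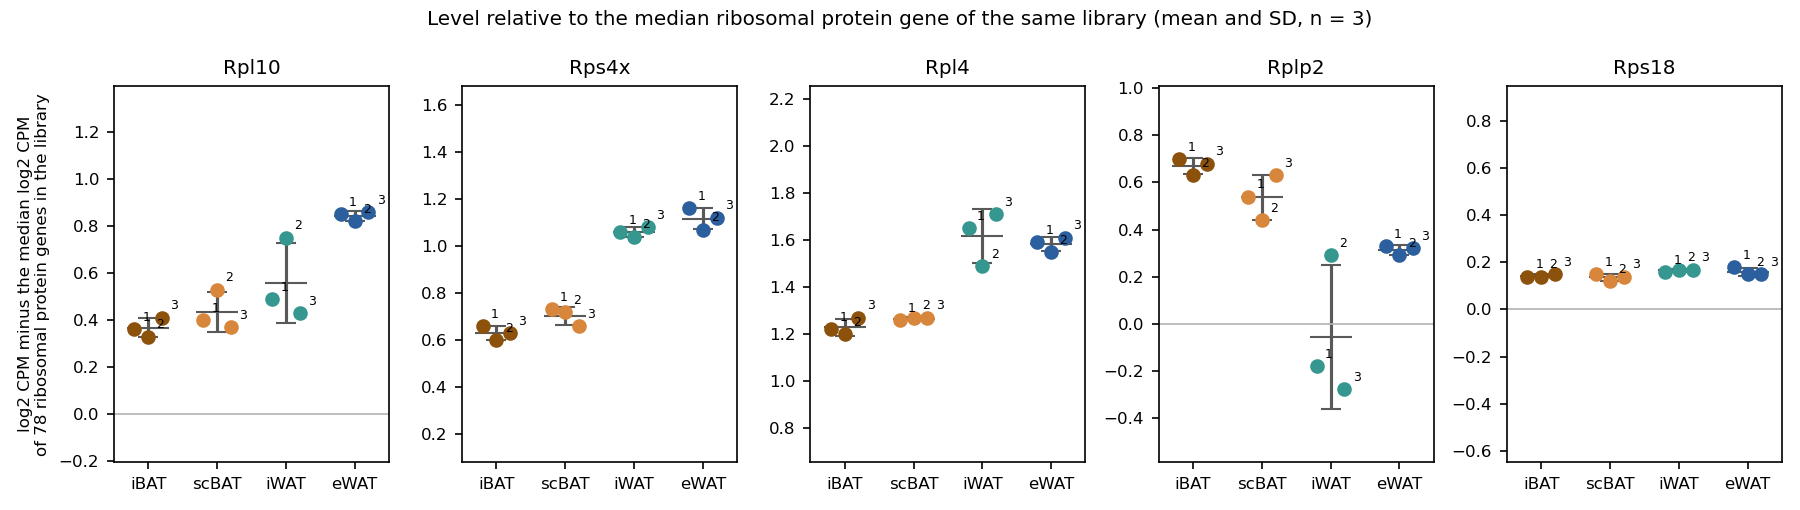
Log2 CPM of 5 members minus the median log2 CPM of the 78 tested members in the same library (points, numbered), with mean and SD of each depot (n = 3), all panels spanning the same height. Rps4x and Rpl4 separate brown from white libraries, Rplp2 and Rpl10 set iWAT 1 and 3 apart from iWAT 2, and Rps18 stays between 0.12 and 0.18.

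The stalk recruits elongation factors to the ribosome through Rplp0, which anchors dimers of Rplp1 and Rplp2. Rplp2 was at 351.8, 363.0 and 353.0 CPM in iBAT and 329.0, 324.5 and 348.9 CPM in scBAT. It was at 272.8, 242.3 and 299.2 CPM in iWAT and 227.0, 219.7 and 207.5 CPM in eWAT. All 6 brown libraries lay above all 6 white ones, as for 3 of 78 members (Rpl3l, Rplp2 and Rps27l) and 23.3% of all tested genes, and all iWAT libraries lay above eWAT. Its log2 difference between brown and white fat was 0.50 (SE 0.07, adjusted p = 0.000138). The same difference was 0.60 without iWAT 1 and 3 (adjusted p = 2.85e-06), and with library totals 0.21 (adjusted p = 0.0441), where brown and white overlapped, with a lowest brown value of 291.2 CPM and a highest white value of 356.9 CPM. Against eWAT it was higher by 0.71 in iBAT (adjusted p = 0.000239) and 0.62 in scBAT (adjusted p = 0.000662), and with library totals by 0.46 and 0.35 (adjusted p = 0.00697 and 0.0297). Against iWAT the scBAT difference of 0.30 turned to -0.05 with library totals.

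With all 12 libraries, the partners of Rplp2 did not pass between brown and white fat. Rplp0 had 597.3, 605.2 and 575.4 CPM in iBAT, 581.3, 587.6 and 568.0 CPM in scBAT, 858.0, 541.5 and 1020 CPM in iWAT and 503.2, 510.5 and 474.1 CPM in eWAT. Libraries iWAT 1 and 3 were the highest and iWAT 2 fell between brown fat and eWAT. The brown minus white log2 difference was -0.11 for Rplp0 (adjusted p = 0.491) and 0.07 for Rplp1 (adjusted p = 0.570). Rplp1 had 366.6 to 395.2 CPM in brown fat, 425.2, 330.6 and 489.5 CPM in iWAT and 294.1 to 326.5 CPM in eWAT. For both partners, with TMM scaling, all 6 brown libraries lay above iWAT 2 and eWAT and below iWAT 1 and 3. With that scaling their differences therefore depended on iWAT 1 and 3. For Rplp0 the order also depended on the scaling. With library totals it had 495.4 to 551.5 CPM in brown fat, 567.7 CPM in iWAT 2 and 516.7 to 545.3 CPM in eWAT. There iWAT 2 lay above all brown libraries, and eWAT overlapped them. The difference between Rplp2 and its partners was not itself tested. Per kilobase of transcript, Rplp2 and Rplp1 had the highest levels of all members in iBAT, 792.7 and 757.0 CPM per kb, against 436.4 CPM per kb for Rplp0. In eWAT the values were 485.7, 624.1 and 365.2 CPM per kb.

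Rps27l showed the clearest difference between brown and white fat of the members at high counts. This paralog of the small subunit protein Rps27 is induced by p53 in human and mouse cells. The gene lies on chromosome 9 of GRCm38 (chr9:66946086-66949516, GENCODE M21). It had 115.0, 128.1 and 127.6 CPM in iBAT and 111.7, 123.8 and 125.9 CPM in scBAT. In iWAT it had 44.6, 59.6 and 42.5 CPM, and in eWAT 56.6, 59.1 and 50.7 CPM. The brown libraries all lay above the white ones, the brown depots overlapped each other, and among iWAT libraries the order was reversed, with 1 and 3 below 2. Brown minus white was 1.23 on the log2 scale (SE 0.09, adjusted p = 9.94e-07), a 2.34-fold difference. The difference was 1.10 without iWAT 1 and 3 (adjusted p = 1.83e-07) and 0.94 with library totals (adjusted p = 8.23e-07), where the lowest brown value of 102.4 CPM stayed above the highest white value of 62.7 CPM. It was 1.16 and 1.12 higher in iBAT and scBAT than in eWAT (adjusted p = 3.43e-05 and 5.09e-05) and 1.34 and 1.30 higher than in iWAT (adjusted p = 1.61e-05 and 2.45e-05). Between the white depots it differed by -0.18 (adjusted p = 0.281). Beside it, Cdkn1a, another p53 target chosen after its values were seen, had 68.3 to 111.5 CPM in brown and 12.8 to 24.5 CPM in white libraries. Trp53 itself had 19.1 to 26.0 CPM in brown fat, 28.6 to 33.5 CPM in eWAT and 73.2, 25.7 and 98.6 CPM in iWAT, and the part of p53 in Rps27l was not tested.

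**Figure D5:**
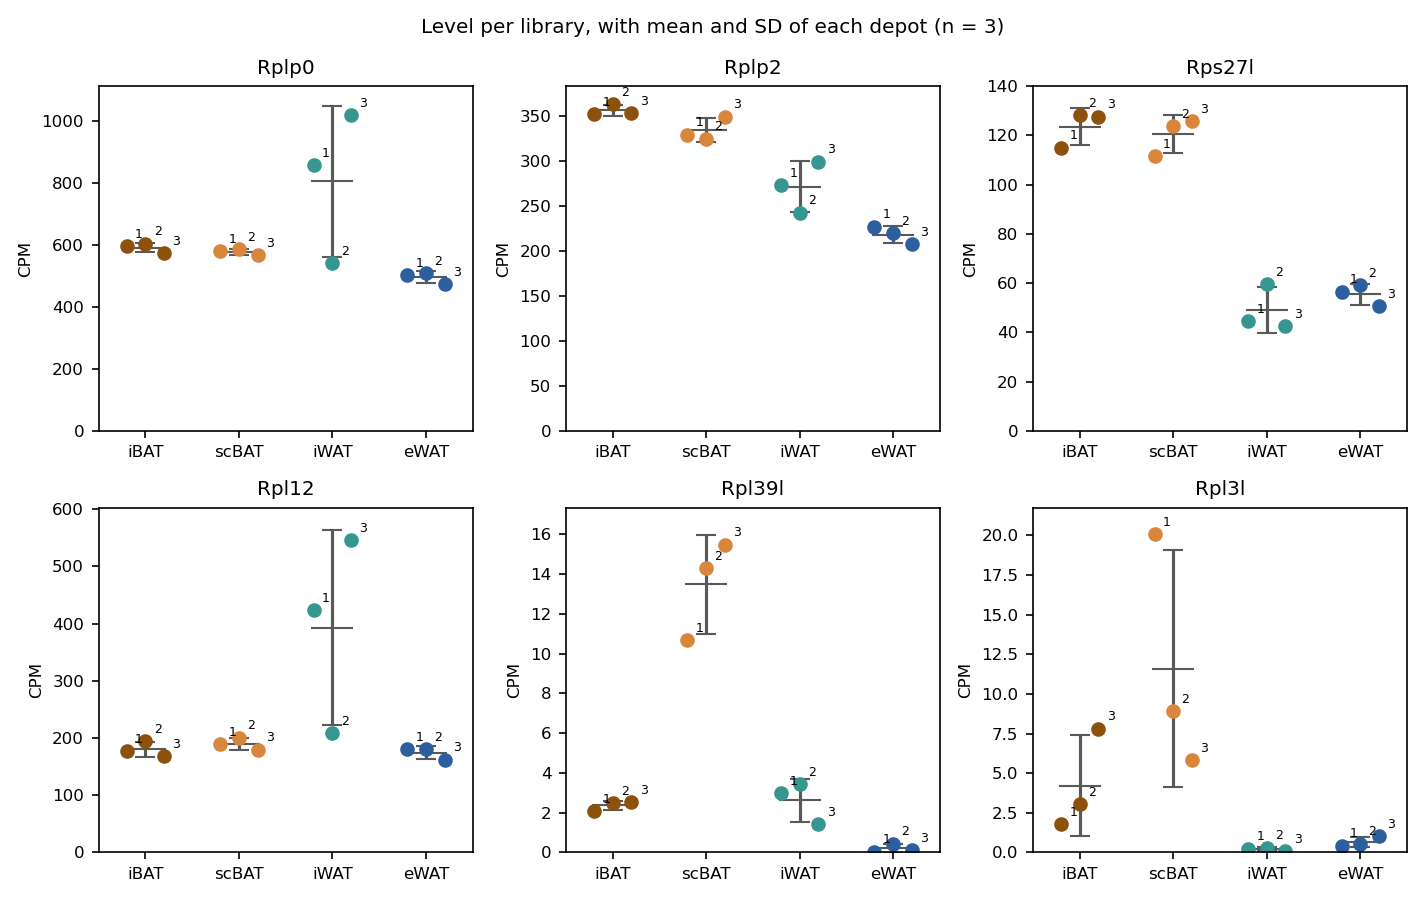
Level in CPM of 6 members in each library (points, numbered), with mean and SD of each depot (n = 3), each panel starting at 0. Rplp0 and Rpl12 are highest in iWAT 1 and 3, Rplp2 and Rps27l are higher in all 6 brown libraries than in all 6 white ones with TMM scaling, and Rpl39l is highest in the 3 scBAT libraries.

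Rpl39l, a paralog of Rpl39 known for its place in the ribosomes of mouse spermatids, was the member that differed most between depots beside Rpl3l. It had 2.08, 2.48 and 2.52 CPM in iBAT, 10.7, 14.3 and 15.5 CPM in scBAT, 2.99, 3.43 and 1.42 CPM in iWAT and 0.0355, 0.436 and 0.125 CPM in eWAT. The 3 scBAT libraries lay above all others, the 3 eWAT libraries below all others, and iBAT and iWAT overlapped. The counts were low, at 671 in scBAT, 112 in iBAT, 206 in iWAT and 16 in eWAT, where eWAT 1 had 1 count, under the 3 counts (0.107 CPM) that a count of 0 would allow. Log2 differences from eWAT were 6.09 in scBAT (SE 0.62, adjusted p = 2.23e-05), 3.58 in iBAT (SE 0.60, adjusted p = 0.00051) and 3.72 in iWAT (SE 0.59, adjusted p = 0.00406), and the last was 4.15 without iWAT 1 and 3 (adjusted p = 0.00368). Without eWAT 2, which held the most counts of the 3, they were 7.26, 4.74 and 4.87, and without eWAT 1 they were 5.60, 3.09 and 3.22. The scBAT level was higher than that of iWAT by 2.37 (adjusted p = 0.00189). As a share of the pair with Rpl39, per kilobase, Rpl39l made up 8.32%, 10.3% and 11.5% in scBAT, 1.86% to 2.15% in iBAT, 0.795% to 2.93% in iWAT and 0.0350% to 0.430% in eWAT. No 50-base window of Rpl39l occurs in another annotated gene, against 16.5% of those of Rpl39. Salivary gland markers had sums of 373.3 to 608.6 CPM in iBAT and 3727, 6644 and 1219 CPM in scBAT for 8 genes, of which 1 to 3 were at 0 in a given brown library. None of the 5 that were tested passed between these pads. Within scBAT the sum was lowest in library 3, where Rpl39l was highest. The same sum was 168.4 to 1291 CPM in white libraries, and the part of these markers in Rpl39l was not tested.

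Rpl3l replaces Rpl3 in skeletal muscle and heart of mice. It had 1.77, 3.06 and 7.82 CPM in iBAT, 20.1, 8.91 and 5.84 CPM in scBAT, 0.246, 0.308 and 0.0988 CPM in iWAT and 0.426, 0.555 and 1.03 CPM in eWAT. Every brown library lay above every white one, but the brown libraries spread over more than the difference between their depots. Brown minus white was 4.18 (SE 0.51, adjusted p = 3.34e-05), 3.93 without iWAT 1 and 3 and 3.90 with library totals. Over the 6 brown libraries, Rpl3l had the same order, from iBAT 1 to scBAT 1, as the muscle genes Ckm and Acta1 and as Eef1a2, the elongation factor of muscle and neurons. Ckm had 26.9, 42.7 and 128.5 CPM in iBAT, 411.5, 135.9 and 119.6 CPM in scBAT and 1.97 to 12.0 CPM in white libraries. All 16 muscle markers were higher in brown than in white fat and none was at 0 in any library, with sums of 636.1 to 8033 CPM against 109.9 to 362.2 CPM, and the part of muscle in Rpl3l was not tested. Per kilobase, Rpl3l was 0.422% to 1.90% of the pair with Rpl3 in iBAT, 1.40% to 4.70% in scBAT and at most 0.309% in white fat. Rpl3 shares 85.6% of its 50-base windows with other genes and Rpl3l shares none. Reads of Rpl3 may thus be split among genes, and the effect on this share was not tested.

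Rpl36al, the autosomal paralog of the X-linked Rpl36a, varied little. It had 51.3, 55.6 and 55.9 CPM in iBAT, 53.4, 61.2 and 54.4 CPM in scBAT, 56.3, 46.4 and 67.8 CPM in iWAT and 47.8, 47.7 and 43.6 CPM in eWAT. It passed in no comparison, with a difference of 0.29 between iWAT and eWAT (adjusted p = 0.102) and 0.11 between brown and white fat (adjusted p = 0.315). Its share of the pair with Rpl36a per kilobase was 26.4% to 27.6% in iBAT, 25.2% to 26.9% in scBAT, 25.8% to 27.1% in eWAT and 19.7%, 23.8% and 19.6% in iWAT, so all 3 iWAT libraries lay below the other 9. Rpl36a shares 85.5% of its 50-base windows with other genes and Rpl36al 22.1%, and the effect on this share was not tested. Rpl10l, the paralog of Rpl10 known from mouse testis, had no count in any library, which allows at most 0.0941 to 0.194 CPM per library for counting error alone.

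Besides the paralogs and Rplp2, the members higher in brown than in white fat included Rpl36 (log2 difference 0.44, adjusted p = 0.00148), Rps2, Rpl24, Rpl41, Rps29, Rpl7a and Rpl11, from 0.35 down to 0.26. Rpl36 had 154.5 to 190.3 CPM in the brown libraries, 148.3, 120.3 and 169.0 CPM in iWAT and 94.8 to 116.7 CPM in eWAT, so iWAT 3 overlapped brown fat. With library totals its difference was 0.14 (adjusted p = 0.254). Rpl41, which encodes a very short basic peptide, had 247.3 to 280.3 CPM in brown fat, 225.9, 221.8 and 249.4 CPM in iWAT and 184.7 to 199.9 CPM in eWAT. Its difference of 0.33 (adjusted p = 0.00168) became 0.03 with library totals (adjusted p = 0.713).

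Between the brown pads no member passed (edgeR quasi-likelihood test, 0.329% of all genes called), and the median log2 difference was 0.01. At an unadjusted p under 0.05 there were 2, Rpl39l and Rpl3l. Rpl39l was 2.51 higher in scBAT (SE 0.50, adjusted p = 0.0917), without overlap, and passed by DESeq2 and by limma-voom, which each called 1 member (1.41% and 0.195% of all genes), and without iWAT 1 and 3 (adjusted p = 0.0132, 1.63% of all genes higher) by edgeR. It likewise passed when iWAT 2, iWAT 3 or eWAT 2 alone was left out. Rpl3l differed by 1.46 (SE 0.61, adjusted p = 0.770), with overlapping libraries. The libraries of the pads overlapped for 66 of 78 members (84.6%) and for 83.2% of all tested genes.

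A few members were close to 0 in all depots and are described only. Rpl26 had no count, Rpl30 had 72 counts over the 12 libraries, Rps27 had 252 and Rpl34 had 263, whereas the median tested member stood at 166.2 to 362.9 CPM in a library. Of the 50-base windows of these transcripts, 56.9% for Rpl26, 82.3% for Rpl30, 98.6% for Rps27 and 33.3% for Rpl34 also occur in another annotated gene, which for Rps27 is mainly Rps27rt. How reads that fit several genes were counted is not given in the sources used here, and its part in the low values was not tested.

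Genes that make, run or control the ribosome were listed beside the members. In brown minus white fat, their counts stand beside 31.3% of all tested genes higher and 38.1% lower, or 33.6% and 35.2% without iWAT 1 and 3. Mitochondrial ribosomal protein genes were higher in brown fat in 75 of 76 cases and lower in none, at a median log2 difference of 1.19 that was 1.07 without iWAT 1 and 3. Growth control genes gave 11 higher and 2 lower of 23, and 12 and 2 without iWAT 1 and 3. Mtor, the kinase itself, was 1.59 higher in brown fat (adjusted p = 3.90e-07), and 1.44 higher without iWAT 1 and 3, whereas Myc was 1.23 lower in log2 terms (-1.23, adjusted p = 0.00253) at 7.17 to 9.47 CPM in brown fat, 35.4, 11.4 and 48.6 CPM in iWAT and 12.4 to 12.7 CPM in eWAT. Its difference was -0.47 without iWAT 1 and 3 (adjusted p = 0.00445). Translation initiation factors gave 18 higher and 5 lower of 36, elongation factors 2 and 3 of 10, other terminal oligopyrimidine messenger RNAs 3 and 5 of 21, and ribosome biogenesis genes 13 and 24 of 72. Host genes of small nucleolar RNAs gave 3 and 4 of 10 and ribosome quality control genes 3 and 2 of 12. Without iWAT 1 and 3 these counts were 26 and 3 for initiation, 5 and 2 for elongation, 9 and 2 for oligopyrimidine, 24 and 10 for biogenesis, 4 and 3 for host and 7 and 2 for quality control genes. The biogenesis median turned from -0.20 to 0.09 and the oligopyrimidine median from -0.08 to 0.13. Between the white depots, where 17.7% of all tested genes were higher in iWAT and 11.0% lower, biogenesis genes were higher in iWAT in 20 of 72 cases and lower in none, other terminal oligopyrimidine messenger RNAs in 11 with 1 lower, initiation factors in 6 with 1 lower and growth control genes in 4 with 1 lower. Elongation factors gave 2 higher, host genes 2 with 1 lower, quality control genes 2 and mitochondrial ribosomal proteins 1 with 3 lower. With iWAT 1 and 3 left out, no gene of these lists passed between the white depots, where 5.8% of all genes did.

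Ribosomal protein genes outside the symbol rule were also listed. In brown minus white fat, Rpl7l1 was higher by 0.41 (adjusted p = 0.00273) and Rpl22l1 lower, at -0.62 (adjusted p = 0.00196). Without iWAT 1 and 3 they were at 0.53 and -0.37 (adjusted p = 0.000664 and 0.00728). Gnb2l1, the scaffold protein also called Rack1, and Fau were higher in iWAT 1 and 3 than in the other 10 libraries, with 676.7, 378.1 and 852.3 CPM for Gnb2l1 in iWAT against 317.2 to 339.4 CPM in eWAT.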

How the data were processed

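RNA of each fat pad was purified and made into TruSeq libraries, per the labels' protocols. The deposited table holds raw counts, whole numbers of reads per gene symbol and library. Per the submitters' processing notes, STAR 2.4.2a and HTSeq 0.6.1p1 were among the tools, beside Picard 1.119, bcl2fastq 1.8.3 and edgeR, and the build was mm10. Annotation, strand setting and the handling of reads that map to several places are not given in the sources used here. Total counts ran from 17159401 to 29262554 per library, and no library pair agreed within counting noise. No column lay outside the 12 libraries.

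The filterByExpr filter on depot left 99.7% or more of every library. The test was edgeR's quasi-likelihood test (version 4.0.16 in R 4.3.3, TMM, robust, 1 mean per depot, 8 residual degrees of freedom), in 7 contrasts. P-values were adjusted by Benjamini-Hochberg across the 14898 genes, at a threshold of 0.05. All adjusted p-values are from this fit unless another tool is named. It was also tried on simulated data in which every depot had the same spread. The iWAT libraries varied more than the others, so that trial cannot vouch for comparisons with iWAT. Differences are log2 values from the fit. Relative levels use a prior count of 2. Alternatives were DESeq2 size factors, upper quartile scaling, scaling without the members, no filter, DESeq2 1.42.0, limma 3.58.1 with voom, a replicate block and each library left out.

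The members and lists were chosen with earlier results of these data known. Named members are all paralogs, the stalk, Rps27a and Rpsa, the 4 largest differences in each direction of each contrast, up to 4 members called against the majority, the 4 highest and lowest means, and the 4 highest and lowest SDs over libraries, and from other lists up to 4 genes with the smallest adjusted p in brown minus white or called against most. Others named in counts of exceptions were chosen after their values were seen. Lengths and shared 50-base windows come from the principal transcripts of GENCODE M21 (GRCm38), and start sites from RefSeq. Intervals and floors cover counting error only. Values of some single genes are not reported here. Replicate numbers were not treated as pairs.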

Additional observations from a re-analysis of the deposited data

How the results depend on the processing

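Of 64 pairs of a named member and a contrast past the threshold, 36 held their direction and threshold under every alternative named in the methods. Without iWAT 1 and 3, 26 held, 34 no longer passed and 4 turned: Rpl3 in iBAT minus iWAT (0.11), and Rpl3 (0.08), Rpl5 (0.03) and Rps15a (0.01) in scBAT minus iWAT. With library totals 57 held, 6 no longer passed and Rplp2 turned in scBAT minus iWAT (-0.05). With both changes 44 held and 20 no longer passed. These 3 settings were added after seeing the data, and the cause of each change was not tested. Member counts without iWAT 1 and 3 were 59 higher and 0 lower (brown minus white), 1 (scBAT minus iBAT), 1 (iWAT minus eWAT), 22 and 0 (iBAT minus iWAT), 64 (iBAT minus eWAT), 23 and 0 (scBAT minus iWAT) and 66 (scBAT minus eWAT). With library totals they were 4 and 35, 61 lower and 66 lower against iWAT, and 5 and 4 higher against eWAT. With both they were 20 and 17, 1, 1, 6 and 15, 12 lower for scBAT minus iWAT, and 10 and 6 lower against eWAT. Upper quartile scaling gave 9 lower in brown minus white. DESeq2 gave 6 higher in iBAT minus iWAT and, like voom, 1 in scBAT minus iBAT, and voom gave 15 lower in scBAT minus iWAT. The replicate block gave 1 lower in brown minus white and 15 lower in scBAT minus iWAT. Of all tested genes, DESeq2 called 4515 higher in iBAT minus iWAT and voom 4366 lower in scBAT minus iWAT. The block called 5502 of all genes lower in brown minus white and 4756 lower in scBAT minus iWAT. Libraries with the same number correlated between -0.184 and 0.234, so the numbers were not taken as pairs. Called genes of the lists between white depots went to 0 without iWAT 1 and 3 in all 9 lists, with either scaling. With library totals elongation and quality control had 4 each, and other oligopyrimidine genes in brown minus white had 15, or 13 with both changes, and quality control 9 without iWAT 1 and 3. In iWAT minus eWAT, DESeq2 gave 6 elongation, 11 initiation, 5 quality control and 9 mitochondrial genes. No filter gave 1 elongation, 10 biogenesis and 3 growth control genes, voom gave 5 biogenesis and 3 growth control, both other scalings gave 3 growth control, and the block gave 1 elongation, 8 biogenesis and 2 growth control. Of all tested genes, DESeq2 called 3166 higher and 2492 lower in iWAT minus eWAT. The same counts were 2459 and 1570 with no filter, 1479 and 1978 by voom and 1876 and 1384 with the block. Leaving out the 50 most abundant other genes gave shares of 1.91% in iBAT, 1.90% in scBAT and 1.77% in eWAT. With no gene left out, iWAT 2 alone held 1.72%, beside means of 1.65% in iBAT, 1.64% in scBAT and 1.57% in eWAT. Leaving out 1 library at a time gave 10 to 22 higher and 1 to 32 lower in brown minus white, 0 to 1 higher and 0 lower in scBAT minus iBAT, 6 to 74 higher and 0 to 1 lower in iWAT minus eWAT, 3 to 5 higher and 11 to 62 lower in iBAT minus iWAT, 16 to 60 higher and 0 lower in iBAT minus eWAT, 3 to 6 higher and 4 to 64 lower in scBAT minus iWAT, and 14 to 62 higher and 0 lower in scBAT minus eWAT. Shares ran from 1.62% to 1.67% in iBAT, 1.62% to 1.66% in scBAT, 2.27% to 3.14% in iWAT and 1.54% to 1.60% in eWAT. Called genes in brown minus white ran from 3 to 5 outside the symbol rule, 4 to 7 elongation, 19 to 27 initiation, 5 to 14 oligopyrimidine, 29 to 51 biogenesis, 11 to 15 growth control, 6 to 8 host, 5 to 7 quality control and 75 to 76 mitochondrial. In iWAT minus eWAT the same lists ran from 0 to 5, 0 to 7, 0 to 15, 0 to 20, 0 to 57, 0 to 14, 0 to 7, 0 to 7 and 0 to 42. The counts of all tested genes moved over these fits as well. In iWAT minus eWAT, 641 to 5326 of all genes were higher and 493 to 4997 lower. In brown minus white, 4365 to 5291 were higher and 5294 to 6566 lower. Against eWAT, 3318 to 4991 were higher in iBAT and 3209 to 4854 in scBAT. Against iWAT, 4466 to 6278 were lower in iBAT and 4196 to 6131 in scBAT. Low counts limit Rpl39l, Rpl3l, Rpl34 and Rps27.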
